A study of Mus musculus with 122 samples.

Results

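The Hi-C domain lists of 2 chimera lines of mouse embryonic stem (ES) cells, CLC and LCL, are described here. All lists of these lines were taken, that is 1 list per condition from each of 2 domain callers, HiCratio and Crane. They make up 8 of the 24 Hi-C domain lists of the series and hold 23433 of its 70254 domains. Each ID list was set against the D list of its own line, and binding sites of the chimera from FLAG ChIP-seq were placed on the boundaries that were kept or lost.

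All cells were E14Tg2a mouse ES cells in which both endogenous Ctcf alleles carry an auxin-inducible degron with eGFP and in which Tir1 is expressed from Rosa26. A doxycycline-inducible transgene with FLAG and mRuby2 tags sits at the Tigre locus, and lines were grown from single colonies. CLC holds the zinc fingers of CTCFL between the N and C termini of CTCF. LCL holds the zinc fingers of CTCF between the N and C termini of CTCFL. D cells received Dox at 1 µg/ml, so that the chimera was present beside endogenous CTCF. ID cells received Dox and IAA (auxin) at 500 µM, so that the chimera was present while CTCF was degraded. I cells received IAA alone and U cells received neither. The sample labels give 24 h of treatment, whereas the treatment protocol gives 4 days for Hi-C and 2 days for the other assays, and this difference was not resolved. No U or I list of the CLC or LCL line was analysed here. The I lists used below come from the lines with intact CTCF or intact CTCFL as the transgene, so that line and condition cannot be told apart in comparisons with them.

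CTCF is a zinc finger protein that halts the loop-extruding cohesin complex, mainly where its motif points toward the incoming cohesin. Pairs of such sites in convergent orientation border contact domains (TADs), whose boundaries insulate genes from enhancers on the other side. CTCFL (BORIS) is a paralog made in the male germ line with closely related zinc fingers and unrelated termini. The N terminus of CTCF is the portion known to contact cohesin. RAD21 is a subunit of cohesin, and its ChIP-seq marks where cohesin accumulates.

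To show what chimera sites on boundaries look like, sequences are given first. For each line, these are strong FLAG sites in ID with the CTCF core motif at boundaries that were found in neither I list, for kept and lost boundaries in turn. Each is read 5′ to 3′ on the strand of the motif from GRCm38, the 12-base core (CCA, any 2 bases, AG, any 2 bases, GGC) is in capitals with 8 bases on each side, and the coordinates are those of the core.
CLC kept, chr16:5254467-5254478, minus strand, intron of Eef2kmt: ccgctacgCCACTAGGGGGCgtgctccc
CLC kept, chr3:90710234-90710245, minus strand, intergenic near S100a9: tgttgcagCCAGCAGGGGGCagtgtgag
CLC lost, chr8:121841530-121841541, minus strand, intron of Gm20388 near Klhdc4: cgaggaagCCAGGAGAGGGCgctagatc
CLC lost, chr2:26640326-26640337, minus strand, intergenic near Fam69b: cgaaggagCCACTAGAGGGCgcggcact
LCL kept, chr1:87246364-87246375, plus strand, intergenic near Efhd1: agctgcttCCACTAGGGGGCactccagg
LCL kept, chr17:47482606-47482617, minus strand, intergenic near Taf8: cactgaagCCAGCAGAGGGCgccagatc
LCL lost, chr9:53667574-53667585, minus strand, intron of Cul5: ggctccagCCAGCAGAGGGCgcgctcgc
LCL lost, chr7:45162378-45162389, plus strand, intergenic near Slc17a7: ctccatggCCACCAGGTGGCgcgtctgc
The FLAG peaks over these cores had -log10 q values from 59.1 to 101 in the replicates. They were picked for holding the core in each class, and most of the strongest boundary sites named further on held no match to it.

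Domains were called on 40 kb bins, from 2 Hi-C samples per condition. The names of the lists carry no replicate and whether they pool both samples is not stated, while each HiCratio list is filed with the second sample and each Crane list with the first. The lists hold no contact counts, so Hi-C depth was not used here, and no difference between lists has a replicate check. Intervals given below cover counting error over boundaries only. Neighbouring boundaries and sites share chromatin and libraries, and are not replicates. The RAD21 replicates of the chimera lines differed widely, with 1491 and 10771 listed regions in CLC D, 2470 and 348 in CLC ID, 5292 and 14913 in LCL D, and 4847 and 163 in LCL ID, so RAD21 is given per replicate. The 16 RNA-seq libraries of both lines held 20497827 to 49716771 reads. All 8 ES cell markers were abundant in them, and the trophoblast markers Cdx2 and Elf5 were at 26.8 or less. With Eomes added, the summed trophoblast list ran from 140.4 to 317 in CLC and from 110.2 to 229.6 in LCL.

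Both chimera lines had fewer and longer domains in ID than in D. HiCratio listed 2976 domains in CLC D and 2605 in CLC ID, and 2880 in LCL D and 2533 in LCL ID. The median domain length was 600 kb in both D lists and 640 kb in both ID lists. The mean rose further, from 0.845 to 0.971 Mb in CLC and from 0.875 to 1.0 Mb in LCL. In the line with intact CTCF, by comparison, the list fell from 3038 to 2889 domains between D and ID and held 2496 in I. Both ID lists of the chimeras lay near this I list and near the 2556 domains of CTCFL I. Crane gave a smaller difference in the same direction, with 3176 and 3038 domains in CLC and 3165 and 3060 in LCL, and a median that rose from 440 to 480 kb.

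**Figure D1:**
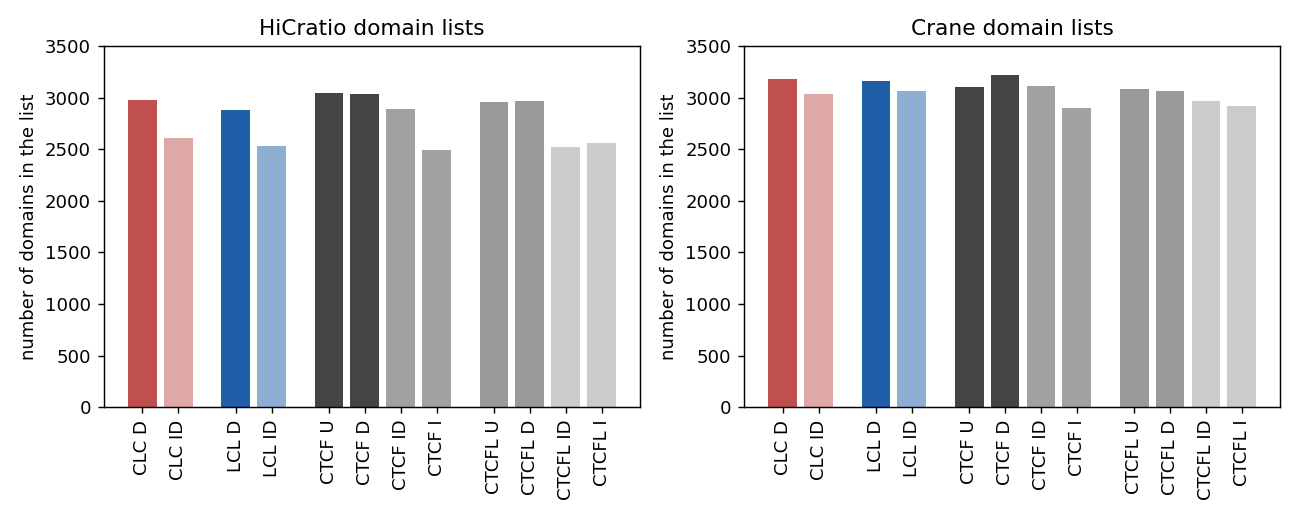
Number of domains (vertical axis, linear from 0) in each deposited list, with HiCratio on the left and Crane on the right and 1 bar per condition. The HiCratio bars of CLC ID (2605) and LCL ID (2533) stand near those of CTCF I (2496) and CTCFL I (2556), and below all U and D bars; the Crane bars differ less.

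To compare lists boundary by boundary, domain edges at most 40 kb apart were joined into 1 boundary, which gave 2993 HiCratio boundaries in CLC D and 2894 in LCL D. A D boundary was called kept where an ID boundary lay within 40 kb, and lost otherwise. In CLC, 1940 boundaries were kept (64.8%, 95% Wilson interval 63.1 to 66.5%) and 1053 were lost. In LCL, 2007 were kept (69.4%, 67.6 to 71.0%) and 887 were lost. Of all 40 kb bins of the genome, 19.9% lay as close to a CLC ID boundary and 19.4% to an LCL ID boundary. The kept share of LCL exceeded that of CLC by 4.53 percentage points (95% Newcombe interval 2.13 to 6.92). It stayed 13.2 points (11 to 15.3) below the 82.5% of the CTCF line, and CLC stayed 17.7 points (15.5 to 19.9) below it. Against the 62.8% of the CTCFL line, LCL was 6.57 points higher (4.15 to 8.98) and CLC 2.04 points higher, with an interval (-0.399 to 4.47) that includes 0.

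With Crane lists the order of the chimera lines was the same. At Crane domain edges, 57.8% of CLC and 62.2% of LCL boundaries were kept, over backgrounds of 27.8% and 27.9% of bins. Crane domains are separated by gaps, so the middle 40 kb of each gap was used as the boundary, a choice made after seeing the data. Kept shares were then 59.2% in CLC and 63.0% in LCL, a difference of 3.86 points (1.46 to 6.26), over backgrounds of 23.1% and 23.3% of bins. By chromosome, the HiCratio share of CLC ran from 54.2% on X to 71.8% on chromosome 18 around a median of 64.9%. That of LCL ran from 60.5% on X to 79.8% on chromosome 15 around a median of 69.2%. The X chromosome, present in 1 copy in these XY cells, thus had the lowest kept share in both lines. The D boundaries themselves were stable across lists with endogenous CTCF, where 86.0 to 91.5% of those of CLC and 86.3 to 93.1% of those of LCL were found in each of the 5 other U or D lists.

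Boundaries that disappear with CTCF were separated from those that do not by means of the I lists. In CLC, 1557 of the D boundaries (52%) were present in both I lists, and 93.6% of these were kept in CLC ID. In LCL, 1573 (54.4%) were present in both, and 94.7% were kept in LCL ID. A further 1021 boundaries of CLC (34.1%) and 917 of LCL (31.7%) were in neither I list. Of these, CLC ID kept 232 (22.7%, 20.3 to 25.4%) and LCL ID kept 254 (27.7%, 24.9 to 30.7%). Of all bins, 19.9% and 19.4% lay as close to an ID boundary. Those bins include the ones at I boundaries, which this class leaves out, so they are not a matched background. The share over bins away from I boundaries was not computed. The CTCF ID list held 68.0% of the same CLC boundaries and 71.2% of the same LCL boundaries, which is 45.2 points (41.3 to 49.0) and 43.5 points (39.3 to 47.5) more than the chimeras kept. The CTCFL ID list held 15.5% and 16.5%. Relative to what the chimeras kept, this was a difference of -7.25 points (-10.6 to -3.84) in CLC and -11.2 points (-15.0 to -7.45) in LCL. From Crane gap middles, the CLC difference was -2.86 points, with an interval of -6.32 to 0.605 that includes 0. For LCL, the CTCFL ID list then held 22.5%, compared with 29.5% kept. The difference between LCL and CLC in this class was 4.98 points (1.11 to 8.85). From Crane gap middles it was 3.44 points, with an interval of -0.187 to 7.06, and the class was kept at 26.1% in CLC and 29.5% in LCL.

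**Figure D2:**
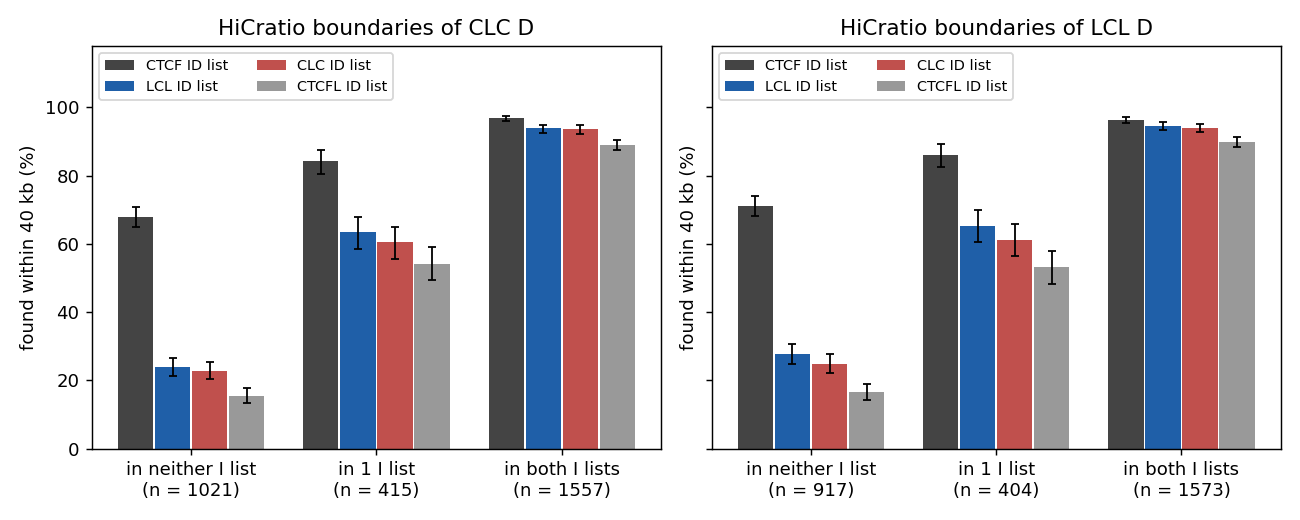
Percent of HiCratio D boundaries of CLC (left) and LCL (right) found within 40 kb in each of 4 ID lists (colours), split by whether the boundary is in neither, 1 or both I lists of the CTCF and CTCFL lines; error bars are 95% Wilson intervals and n counts boundaries. In the class in neither I list, the CTCF ID bars stand at 68.0% and 71.2%, and the bars of the own ID list at 22.7% for CLC and 27.7% for LCL.

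Lost boundaries of the chimera lines were mostly present in lists with functional CTCF. Among those lost in CLC, 87.8% were in CTCF D, 68.8% in CTCF ID and 12.8% in CTCFL ID. Among those lost in LCL, the shares were 87.6%, 70.6% and 14.3%. The 2 chimera lines lost largely the same boundaries. Of the 2695 CLC D boundaries also present in LCL D, 1716 were kept in both lines and 666 lost in both, while 132 were kept in CLC alone and 181 in LCL alone. CLC ID also had 661 boundaries that CLC D lacked (25.4% of its 2602), and LCL ID had 534 (21% of its 2540). Most of these gained boundaries were present in at least 1 I list, at 77.3% (74.0 to 80.3%) in CLC and 76.8% (73.0 to 80.2%) in LCL. The share of all bins that lie as close to an I boundary was not computed. Of the boundaries gained in CLC, 12% were found in CTCF D, and 13.1% of those gained in LCL. Low shares follow in part from the rule, since gained boundaries are absent from a D list that shares most boundaries with CTCF D.

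Where D boundaries were lost, neighbouring domains came to lie in a single ID domain. In CLC, 323 ID domains held 2 D domains and 111 held 3 or more, together 16.7% of its ID domains. In LCL, the numbers were 306 and 94, together 15.8%. The shares were 9.73% in the CTCF line and 19.1% in the CTCFL line. The CLC ID domain that held most D domains covered 10.9 Mb at chr8:57840001-68760000. It held 10 domains of CLC D and 9 of their boundaries, of which 7 were in neither I list and 6 were in CTCF ID. FLAG sites of CLC were present at 5 of the 9. In LCL, 6 D domains was the most that an ID domain held. The domain chr4:44080001-48680000 had 106 FLAG sites of LCL, with sites at 4 of its 5 inner boundaries, and chr5:66720001-72960000 had 37, with sites at 3 of its 5.

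The FLAG sites of the chimeras were then placed on the boundaries. A site is a region with a peak in both replicates, and a boundary holds a site that lies within 20 kb of it. CLC had 7599 sites in D and 17876 in ID, and LCL had 27579 in D and 34698 in ID. In CLC, a FLAG ID site was present at 62.8% of the kept and 63.8% of the lost boundaries, compared with 32% of all bins. The difference between kept and lost was -1.03 points (-4.62 to 2.6). In LCL, a site was present at 77.0% of the kept and 79.8% of the lost boundaries, compared with 44.2% of all bins, a difference of -2.79 points (-5.93 to 0.505). Gained boundaries held sites less often, at 43.9% in CLC and 53.7% in LCL. Sites listed in D, while CTCF was present, were found at 32.8% of kept and 32.7% of lost boundaries in CLC, over 18.2% of bins, and at 75.1% and 78% in LCL, over 40.5% of bins. Under these settings both intervals for ID sites include 0. In LCL, other HiCratio settings gave intervals below 0, that is sites more often at lost boundaries. The difference was -4.74 points (-7.48 to -1.83) with sites within 40 kb, -3.69 (-6.94 to -0.295) with a -log10 q of at least 5, -3.39 (-6.41 to -0.203) without FLAG replicate 1 and -3.61 (-6.80 to -0.222) with boundaries matched within 80 kb. With Crane gap middles the difference turned in sign, to 3.34 points (-0.196 to 6.86) in CLC and 2.11 points (-1.41 to 5.66) in LCL. At Crane domain edges it was 3.03 points (0.633 to 5.39) in LCL. Sites were there at 33.4% of kept and 30.3% of lost boundaries, near the 31.3% of bins. The median gap between Crane domains was 280 kb, so edges lie away from the gap middle and say little on sites at boundaries. Among HiCratio boundaries in neither I list, sites were present at 63.8% of kept and 63.8% of lost boundaries in CLC (0.0415 points, -7.12 to 6.87), and at 85.4% and 82.4% in LCL (3.08 points, -2.49 to 7.98).

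**Figure D3:**
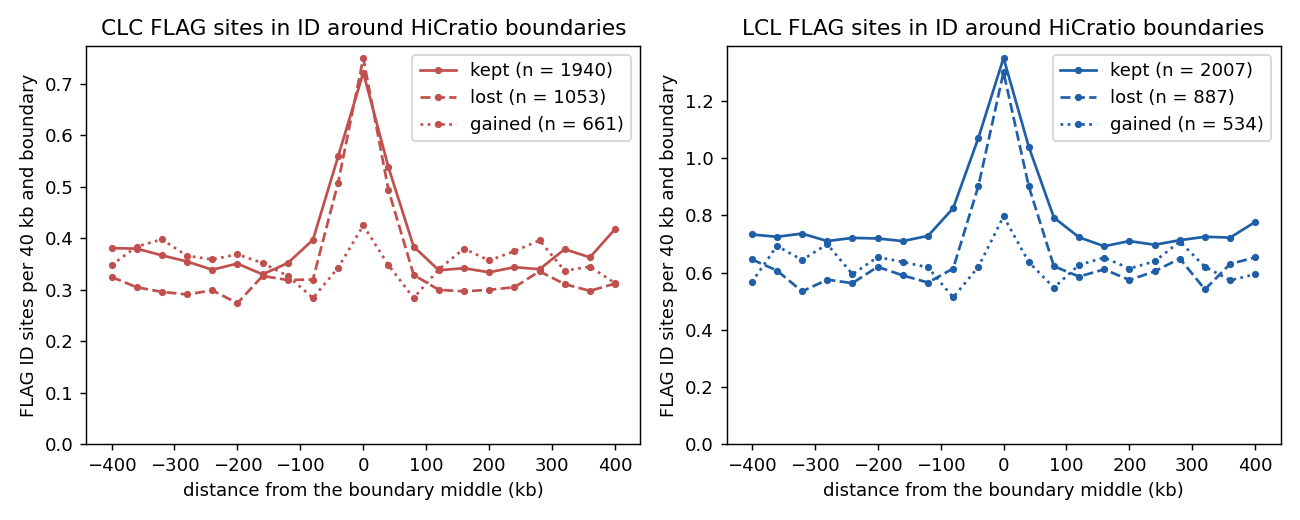
FLAG ID sites per 40 kb and boundary (vertical axis, linear from 0, with a different range in each panel) against distance in kb from the middle of HiCratio boundaries, for CLC (left) and LCL (right), with kept, lost and gained boundaries as separate lines. At the middle, CLC had 0.722 sites per kept and 0.750 per lost boundary, and LCL had similar values at both classes, while gained boundaries had a lower peak.

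The strength of the sites was compared as well. The strength of a site is taken as the lower -log10 q of its peaks in the 2 replicates, and a boundary is given by its strongest site. In LCL, the median was 38 at kept and 27.1 at lost boundaries. Within the class in neither I list it was 37.9 and 25.9. In CLC, the medians lay closer together, at 25.6 and 22.4, and at 21.2 and 21 in the class in neither I list. These medians are given as descriptions without a test. The kept share of LCL boundaries was 72.0% with no site, 61.4% with 1, 65.4% with 2 and 72.9% with 3 or more. For CLC it was 65.5%, 62.0%, 67.2% and 65.0%, with no order by number of sites. In the class in neither I list, LCL boundaries with 3 or more sites were kept more often (33.1%) than those with fewer (23.9%), by 9.19 points (3.28 to 15.1). With Crane gap middles this difference was -1.66 points (-7.39 to 4.43), so it depended on the caller.

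**Figure D4:**
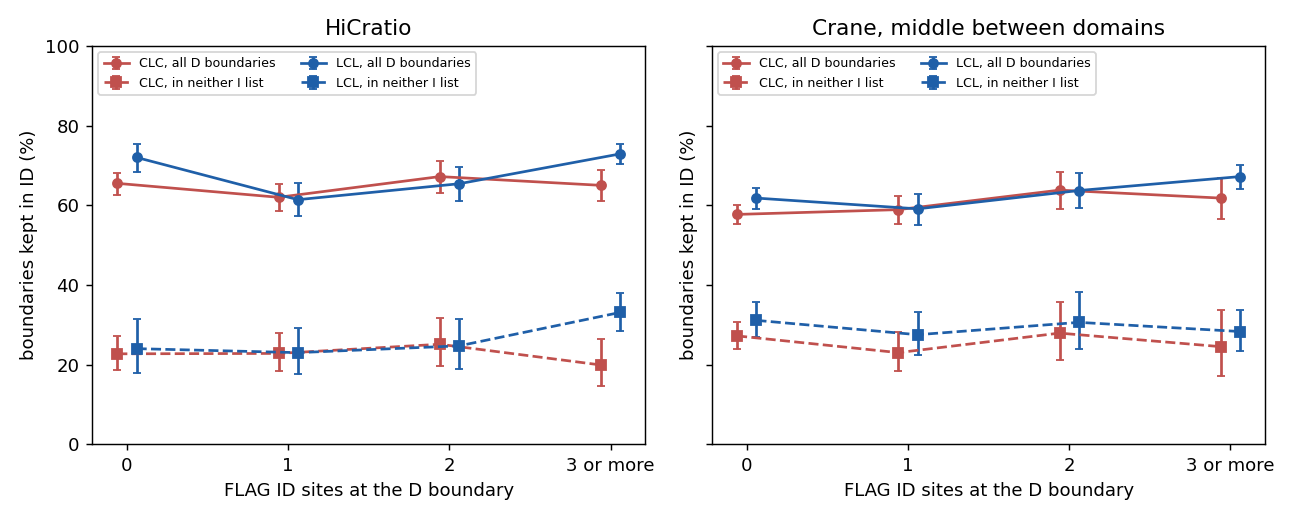
Percent of D boundaries kept in ID (vertical axis, linear from 0) by the number of FLAG ID sites at the boundary, for HiCratio (left) and the middle between Crane domains (right); circles with solid lines are all D boundaries, squares with dashed lines those in neither I list, and error bars are 95% Wilson intervals. In the HiCratio panel, LCL boundaries in neither I list reach 33.1% at 3 or more sites, and in the Crane panel 28.3%.

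Sites of intact CTCF in ID offered a reference for where CTCF itself can bind. They were present at 76.7% of kept and 85.6% of lost boundaries in CLC (-8.86 points, -11.6 to -5.96), and at 78.3% and 85.1% in LCL (-6.79 points, -9.66 to -3.75), compared with 45.4% of all bins. Lost HiCratio boundaries thus held CTCF sites more often than kept ones, but this depended on the caller and the class. Crane gap middles gave -1.35 points (-4.75 to 2.07) in CLC and -1.29 points (-4.72 to 2.18) in LCL. Crane edges, where 30.7% of bins held a site, turned the sign, to 1.91 points (-0.430 to 4.23) in CLC and 3.63 points (1.25 to 5.98) in LCL. Among HiCratio boundaries in neither I list the difference was -6.01 points (-11.8 to -1.01) in CLC and -0.0463 points (-5.11 to 4.29) in LCL. Among boundaries with a CTCF site, those that also held a chimera site were kept more often. In CLC, 64% of 1853 boundaries with both were kept, compared with 56.3% of 536 with the CTCF site alone, a difference of 7.66 points (2.97 to 12.4). In LCL, it was 68.4% of 2179 compared with 55.4% of 148, a difference of 13 points (4.95 to 21.2). Crane gap middles gave 7.39 points (2.66 to 12.1) and 13.6 points (6.84 to 20.4). In the class in neither I list, the differences were 4.12 points (-2.06 to 9.65) and 9.37 points (-2.41 to 17.9), with intervals that include 0. Boundaries with neither kind of site were kept at 74.1% in CLC and 77.0% in LCL.

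RAD21 gave different answers in its replicates. In LCL ID, replicate 1 placed a RAD21 region at 26.4% of kept and 17.2% of lost boundaries (9.11 points, 5.88 to 12.2), compared with 12% of bins. Replicate 2, with its 163 regions, placed one at 0.847% and 0.451% (0.396 points, -0.375 to 0.972), compared with 0.359% of bins. In CLC ID, the shares were 10.2% and 8.26% in replicate 1 (1.94 points, -0.274 to 4.03) and 2.68% and 2.09% in replicate 2, compared with 6.45% and 0.894% of bins. In CLC D, where CTCF was present, replicate 1 gave 9.69% and 8.55% (1.14 points, -1.08 to 3.22), compared with 4.26% of bins. Replicate 2 gave 48.4% and 43.7% (4.72 points, 0.975 to 8.43), compared with 23.7% of bins. For this replicate, Crane gap middles gave -0.116 points (-3.42 to 3.15). In LCL D, the shares were 27.9% and 28.3% in replicate 1 and 59.6% and 58.9% in replicate 2, compared with 13.5% and 29.6% of bins. LCL boundaries with both a chimera site and a RAD21 region of replicate 1 in ID were kept at 77.4%, compared with 64.9% of those with a chimera site and no such region (12.5 points, 8.45 to 16.3). Crane gap middles gave 8.04 points (3.13 to 12.7). For CLC the difference was 6.62 points (0.192 to 12.5) with HiCratio and -4.83 points (-12.9 to 2.95) with Crane gap middles. Within the class in neither I list, HiCratio gave 7.37 points (-0.167 to 15.4) in LCL and -4.85 (-13.4 to 7.18) in CLC. Crane gap middles gave 3.50 points in LCL and 3.52 in CLC, and these intervals all include 0. For LCL ID replicate 1, kept minus lost in that class was 5.77 points with HiCratio, with a lower limit of 0.00562. From Crane gap middles it was 2.45 points (-2.04 to 7.39). How much of the RAD21 differences came from the unequal replicates was not tested.

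Kept boundaries lay more often at starts of protein-coding genes. Taking any such gene, a start was present at 66.2% of kept and 53.3% of lost boundaries in CLC, compared with 37.1% of bins. In LCL, it was present at 66.8% and 51.7%. The values below count expressed genes alone, and Crane boundaries were not used for any of these shares. A start site is here the 5′ end of a protein-coding gene with a mean RNA value of at least 10 in D. It was present at 52.2% of kept and 39% of lost boundaries in CLC, a difference of 13.2 points (9.47 to 16.8), compared with 25.1% of bins. In LCL, it was present at 53% and 39%, a difference of 14 points (10 to 17.8). Gained boundaries held one at 44.8% in CLC and 38% in LCL. In the class in neither I list, the differences were 7.34 points (0.157 to 14.6) in CLC and 8.97 points (1.82 to 16.1) in LCL. Among boundaries with a chimera site, those with such a start site were kept at 70.3% compared with 55.6% without one in CLC (14.6 points, 10.2 to 19.0), and at 74.9% compared with 59.8% in LCL (15.1 points, 11.2 to 19.0). Boundaries without a chimera site were kept at 74.6% with such a start site and 62.3% without one in CLC, and at 82.2% and 70.1% in LCL. In each of these 4 pairs the share was higher without a chimera site than with one. For LCL boundaries without a start site the intervals were 66.1 to 73.8% without and 56.7 to 62.9% with a chimera site. The pairs take all D boundaries and were not split by presence in the I lists. In the class in neither I list, whatever the start sites, CLC kept 22.7% with no site. With 1, 2 and 3 or more it kept 22.8%, 25.1% and 19.9%. The LCL shares in that class were 24.0%, 23.0%, 24.7% and 33.1%.

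The 12-base core motif shown above was searched on both strands within 50 bp of the summit of each FLAG ID site. It was present in 18.1% of all CLC sites and 12.4% of all LCL sites, compared with 0.494% of all 101 bp windows of the genome. CLC sites held it equally at kept (19.3%) and lost (19.3%) boundaries, and LCL sites at 13.4% and 14.3%. A match is a description of the letters, and sites without one may hold other forms of the motif. Its strand followed the boundary. Before kept boundaries of CLC, 31.6% of matches were on the forward strand, and after them 63.2%, a difference of 31.6 points (25.4 to 37.4). For LCL, the shares were 35.6% and 64.2%, a difference of 28.6 points (23.3 to 33.7). Motifs therefore tended to point from the boundary into the neighbouring domains. Lost boundaries had the same arrangement, with differences of 30.5 points (21.7 to 38.6) in CLC and 38.7 points (30.5 to 46) in LCL. Around gained boundaries it was weaker, at 16.3 points (1.61 to 30.1) in CLC and 6.61 points (-8.16 to 21) in LCL.

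**Figure D5:**
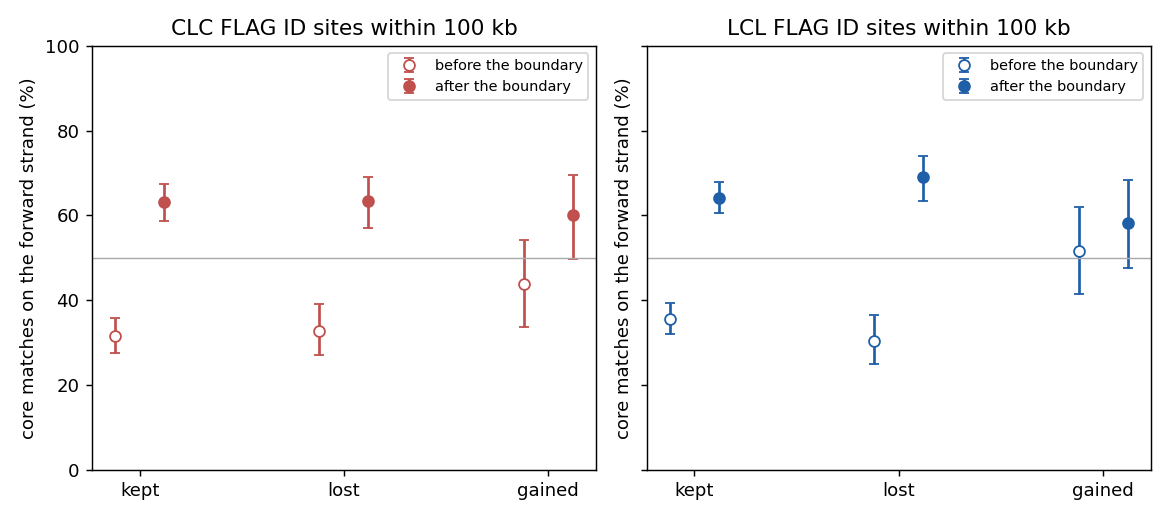
Percent of core motif matches on the forward strand (vertical axis) in FLAG ID sites within 100 kb before (open) and after (filled) the boundary middle, for kept, lost and gained HiCratio boundaries of CLC (left) and LCL (right); error bars are 95% Wilson intervals and the grey line marks equal use of both strands. Shares rise from 31.6% to 63.2% at kept and from 32.8% to 63.3% at lost CLC boundaries, and from 35.6% to 64.2% and from 30.4% to 69.0% in LCL.

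The strongest chimera sites were found on boundaries of either fate, taking boundaries whose class was the same with both callers. Ranked by their strongest FLAG ID site, the first lost boundary of CLC was chr8:121840001-121880000 near Klhdc4, with 6 FLAG sites, the strongest at -log10 q values of 101 and 101. It was in neither I list, and the nearest CLC ID boundary was 240 kb away. The first lost boundary of LCL was chr13:23400001-23440000 near Abt1, with 6 FLAG sites, a strongest site of 99.2 and 96.5, and an ID boundary 280 kb away. A boundary on chromosome 18, with its strongest site over a UTR of Diaph1 and an exon of Hdac3, was lost in both lines, with FLAG values of 81.6 and 119 in CLC and of 95.2 and 102 in LCL. Hdac3 encodes a histone deacetylase of nuclear corepressor complexes. Among kept boundaries, chr13:94960001-95000000 over the start of Wdr41 was called kept in both lines, with an ID boundary 40 kb away, the limit of the rule, and with FLAG values of 84.5 and 102 in CLC and of 85.7 and 94.2 in LCL, although it was in neither I list. The first kept boundary of LCL, chr17:47480001-47520000, whose ID boundary also lay 40 kb away, held 7 FLAG sites, the strongest in an intron of Ccnd3, which encodes cyclin D3.

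The nearest D boundary was also followed at a list of 40 genes of development, pluripotency and the germ line. Some of these genes share a boundary, so that there were 33 boundaries in CLC and 35 in LCL. With HiCratio, 21 were kept and 12 lost in CLC, and 27 were kept and 8 lost in LCL. Of those in neither I list, CLC kept 2 of 11 and LCL kept 5 of 13. Crane D had a boundary at 28 of them in CLC and gave the same class for 25, and had one at 31 in LCL and gave the same class for 26. Classes below are those of HiCratio. The boundaries nearest to the Hoxa, Hoxb, Hoxc and Hoxd clusters, whose genes pattern the body axis, were kept in both lines and were present in both I lists. That of Hoxc lay 361 kb from Hoxc13 and thus not at the cluster, while CLC ID listed a boundary at Hoxc13 itself. The boundary chr7:142720001-142760000 beside the imprinted genes Igf2 and H19 was in neither I list and was kept in both lines, with 4 FLAG sites of LCL and none of CLC. Pluripotency genes differed among themselves. The boundaries nearest to Pou5f1, Sox2 and Nanog were kept in both lines, although no Crane ID boundary of CLC lay at that of Nanog. The boundary chr4:55240001-55280000, nearest to Klf4 in D at 252 kb, was lost in both. The nearest ID boundary was then at Klf4 itself in CLC and 1188 kb away in LCL. The boundary chr1:12960001-13000000 near Prdm14, which encodes a germ cell and pluripotency regulator, was lost in CLC and kept in LCL, with 1 FLAG site of strength 57.2 and 53.3 in the lines. Crane listed it in D of both lines and in ID of neither, so with Crane it was lost in LCL too. The HiCratio classes also differed at testis genes. The boundary over Prss50, which encodes a testis protease, was lost in CLC and kept in LCL, although it was present in both I lists. The boundary near Stra8, the retinoic acid target that gates meiosis, was kept in CLC and lost in LCL. Crane D listed no boundary at Stra8 in either line and none at Prss50 in CLC, so these differences between the lines rest on HiCratio alone. Those near Gal3st1, Mycn and Wnt6 were lost in both, but Crane D listed none at Gal3st1 and Mycn, and Crane kept that of Wnt6 in LCL.

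RNA of genes at lost boundaries was compared between ID and D with limma, at an adjusted p under 0.01 and a log2 difference above 1. To place these genes, the start of any annotated transcript counted as a start site. In CLC, 119 of 1316 tested genes with a start site within 40 kb of a lost boundary, and of no kept one, were called (9.04%, 95% Wilson interval 7.61 to 10.7%), 54 higher and 65 lower in ID, compared with 7.55% of all tested genes (4.00% higher and 3.55% lower). At kept boundaries, 201 of 3141 were called (6.40%, 5.60 to 7.31%). In LCL, 134 of 1095 genes at lost boundaries were called (12.2%, 10.4 to 14.3%), 45 higher and 89 lower, compared with 11% of all tested genes (4.26% higher and 6.76% lower) and 354 of 3350 (10.6%, 9.57 to 11.7%) at kept boundaries. In CLC, the interval at lost boundaries thus lay just above the share of all genes and above the interval at kept boundaries, while in LCL the intervals overlapped. Genes are not replicates, and these intervals cover counting error over genes only. When only the 5′ end of each gene was counted, a choice made after seeing the data, the shares at lost boundaries were 8.06% in CLC and 10.5% in LCL, and those at kept boundaries 6.07% and 10.2%. Leaving out 1 library at a time lowered the number of called genes at lost boundaries to between 76 and 80 in CLC (5.76 to 6.09%), while the share of all genes fell to between 4.33 and 4.97%. In LCL it left 96 to 125 (8.79 to 11.4%), with 8.38 to 10.6% of all genes. The contrast changes endogenous CTCF genome-wide while the transgene is induced in both groups, so a share read at boundaries cannot be told apart from effects of CTCF elsewhere.

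Of the 10 called genes with the largest differences at lost boundaries of CLC, 8 fell. Of these 10, 7 were placed there by an inner transcript start, with the 5′ end of the gene over 40 kb from the boundary, as were 4 of the 10 in LCL. Prkce, which encodes a protein kinase C, had values of 101 and 90.2 in D and of 6.77 and 4.56 in ID, all ID values lying below both D values (log2 difference -3.87 ± 0.39 SE, limma adjusted p = 0.000245). A transcript start within it lay 10.6 kb from a boundary with 2 FLAG sites, and the 5′ end of the gene 272 kb from it. Ryr2, a calcium release channel of heart muscle, went from 189.9 and 196 to 18.1 and 9.11 (-3.81 ± 0.41, limma adjusted p = 0.000324). Kif5c, a neuronal kinesin, went from 294 and 292 to 12.8 and 31.9, beside a boundary with no FLAG site. Nrcam, a neuronal adhesion molecule, went from 136 and 124 to 6.77 and 11.8. Gnat1, the transducin of rod photoreceptors, rose from 0.970 and 7.12 to 60.9 and 47.4. Cspg4, a membrane proteoglycan, rose from 2.91 and 8.71 to 46.6 and 55.6. Gas2, Tmem163, Cntn3 and the secreted chaperone gene Clu were lower in ID. These 6 calls, from Gnat1 on, were lost without at least 1 library, and the smallest differences were then 2.75 for Gnat1 without D replicate 1 and -2.47 for Tmem163 without ID replicate 2. Changes of this size were also met at kept boundaries. Grid1, a glutamate receptor of the delta type, went from 172 and 155 to 6.77 and 7.29 in CLC (-4.36 ± 0.28, limma adjusted p = 4.31e-05). The interferon-induced Oas1e, one of a family of near-identical genes whose reads may be divided, was higher in ID, at 185 and 189 compared with 10.7 and 3.96.

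At lost boundaries of LCL, 9 of the 10 called genes with the largest differences fell. Smc1b, the cohesin subunit of meiosis, went from 659.6 and 590.1 in D to 83.0 and 49.4 in ID (log2 difference -3.26 ± 0.21 SE, limma adjusted p = 2.79e-10), with the lost boundary over its start and 3 FLAG sites there. Mei1, which acts in meiotic recombination, went from 36.5 and 27.7 to 2.94 and 0. Krtdap, a gene of keratinocyte differentiation, rose from 92.4 and 57.6 to 1198 and 1148 (3.99 ± 0.2, limma adjusted p = 9.69e-12). Dpp6, an auxiliary subunit of potassium channels, went from 283 and 261 to 12.9 and 31.1. Fbn1, which encodes the matrix protein fibrillin-1, went from 179.6 and 177 to 12.4 and 18.4. Focad went from 851 and 867 to 118 and 93.2 beside a boundary with no FLAG site. Sema3d, Cntn1, Dock2 and Dlgap2 were lower in ID as well. Cntn1 lost its call without D replicate 1 (-3.66), and Dlgap2 without either D replicate or without ID replicate 2 (-1.73), and with edgeR on recovered reads (-2.50). At kept boundaries, Atp1b2, a subunit of the sodium pump, went from 7495 and 7893 to 355 and 373 (-4.40 ± 0.09, limma adjusted p = 4.18e-18), with 8 FLAG sites. Cc2d2a, a gene of the ciliary transition zone, went from 138 and 150.5 to 2.94 and 4.24, and Grid1 from 139 and 145 to 7.65 and 2.82, as it did in CLC.

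Genes of the loop extrusion machinery were looked at as a list. Of 16 genes for CTCF, CTCFL, cohesin and its loaders and regulators, none was called in CLC and 1, Ctcfl, was called higher in LCL. Of all tested genes, 7.55% were called in CLC and 11% in LCL. With 16 genes, such counts cannot be told apart from these shares. Ctcfl values in LCL were 36.5 and 27.2 in U, 384 and 416 in D, and 1119.6 and 1225 in ID (log2 difference of ID and D 1.55 ± 0.22 SE, limma adjusted p = 1.12e-05). In CLC they were 41.4 and 42.7 in U, 1791 and 1829 in D, and 3441 and 2544 in ID (0.71 ± 0.15, limma adjusted p = 0.00798). Reads of the transgenes hold Ctcfl and Ctcf sequence, so these values cannot be told apart from the endogenous genes, and degradation acts on CTCF protein, which RNA does not check. Rad21 was at 14187 and 14634 in CLC D and at 11449 and 13512 in CLC ID. In LCL it was at 12627 and 12928 in D and at 11459.5 and 10628 in ID, differences that did not pass the test. Esco2, which encodes a cohesin acetyltransferase, differed by -0.70 in CLC (limma adjusted p = 0.00787), and Wapl, which encodes a cohesin release factor, by -0.38 in LCL (limma adjusted p = 0.00145), both short of the threshold of 1. Of the ES cell markers, Esrrb was called lower in LCL (-1.15 ± 0.1, limma adjusted p = 8.46e-09) and none was called in CLC. The primitive endoderm genes Gata6 and Sox17 were called higher in CLC ID, by 1.29 each, and the summed values of that list were at 400.1 and 458 in D and at 680.1 and 649 in ID. Of the trophoblast list, 1 gene was tested, and Eomes was called lower in LCL (-1.13). The fibroblast gene Col1a1 was called lower in LCL (-1.95), where the summed list was at 667 and 707 in D and at 225 and 242 in ID, and no mesoderm or neural marker was called in either line. The marker lists are shorter than the list of 16 genes, and their counts were not tested against the shares of all genes. The part of these markers in the boundary results was not tested.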

How the data were processed

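The authors processed Hi-C with HiC-Bench (bowtie2 2.3.1, GRCm38/mm10, ICE correction) and called domains on 40 kb bins with HiCratio (5% false discovery rate) and Crane (500 kb window). The authors ran MACS on each FLAG and RAD21 replicate alone, with a q threshold of 0.05. Their deposited -log10 q values are taken at the summit of FLAG peaks, their fold enrichment ratio values are relative to local background, and they list no reads. The deposited RNA signal values were made by the authors from reads aligned with STAR v2.6, as counts scaled by a size factor, and the program that counted is not given in the sources used here. Chromosomes 1 to 19 and X were used, and annotation was GENCODE vM21, which matched 97.8% of tested genes by symbol.

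Peaks of both replicates were merged, and a site has a peak in both. Shares carry Wilson and differences Newcombe intervals at 95%, computed as for independent boundaries. For RNA, limma 3.58.1 (R 4.3.3) was run on log2(value + 1), once per line over U, I, D and ID, for genes with a mean of at least 10 (15337 in CLC, 15274 in LCL). Labels do not say that replicates are separate cultures, so p-values may measure technical spread. Whole reads were recovered from 100% of the values tried in the libraries of both lines (within 0.1 read), for edgeR 4.0.16. On simulated data, 92% of 3-fold and 99% of 6-fold changes were called for CLC, and 96% and 98% for LCL. The simulation gave all genes the same spread and changed 100 genes at each fold, all with a D mean of at least 10. These shares are therefore not the power of the test on the real libraries.

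Named genes are the 10 called genes with the largest difference at lost and the 5 at kept boundaries per line, with D and ID libraries apart, beside lists of loop extrusion, locus and marker genes. Named boundaries are the 3 per line and class with the strongest FLAG site. Sequences shown follow the same ranking among sites with the core, a rule added after seeing the named boundaries. Members and lists were chosen with earlier results of these data known. Alternatives covered match distance, caller, window, peak threshold, replicates, and for RNA the pseudocount, filter, scaling, block and tool. The columns of the CTCF and CTCFL lines in the RNA table were not used. Python 3.11.15, numpy 2.4.6, pandas 2.3.3 and pysam 0.24.0 were used.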

Additional observations from a re-analysis of the deposited data

Results flagged for a closer look

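Among 97 genes looked at, 6 had differences of opposite sign in the 2 lines, with no overlap between the D and ID libraries of either line. The share of all tested genes that meet this rule was not counted, so 6 of 97 cannot be read as a trait of these genes. The difference between the lines was not tested. With limma, Gadd45g, a growth arrest gene, differed between ID and D by -0.38 in CLC (adjusted p = 0.414) and by 2.81 in LCL (adjusted p = 7.94e-08). Its nearest HiCratio boundary, at a different position in each line, was lost in both, but with Crane that of CLC was kept. Dll1, a Notch ligand, differed by -0.54 in CLC (adjusted p = 0.339) and 2.16 in LCL (adjusted p = 0.000473), beside a kept boundary. Lin28a, an RNA-binding protein of stem cells, differed by -1.17 in CLC (limma adjusted p = 6.76e-05) and by 0.20 in LCL (limma adjusted p = 0.106). Its nearest D boundary, at a different position in each line, was lost in CLC with HiCratio but not with Crane, and kept in LCL. The nearest HiCratio ID boundary lay 18.8 kb from its start in both lines, so these classes show no difference between the ID lists there. Col1a1, a fibroblast marker, differed by 0.57 in CLC (adjusted p = 0.0407) and -1.95 in LCL (adjusted p = 6.07e-07). Esco2 differed by -0.70 in CLC (adjusted p = 0.00787) and 0.26 in LCL (adjusted p = 0.0363), and Sall4 by 0.08 in CLC (adjusted p = 0.576) and -0.52 in LCL (adjusted p = 0.000332).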

How the results depend on the processing

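The kept share was 59.3% in CLC and 63.6% in LCL when boundaries had to overlap or touch, 68.9% and 72.5% within 80 kb, 57.8% and 62.2% with Crane edges, and 59.2% and 63.0% with Crane gap middles. LCL was above CLC in each. In the class in neither I list it was 31.2% and 34.6% with Crane edges and 26.1% in CLC with Crane gap middles. The FLAG difference (kept minus lost) was 3.34 points in CLC and 2.11 in LCL with Crane gap middles, 3.03 in LCL with Crane edges, and 1.44 in LCL with as many strongest sites as CLC has. Against this, 4 HiCratio alternatives in LCL, given above, put it between -4.74 and -3.39 with intervals below 0. RAD21 differences with 1 replicate left out ranged from 1.14 to 4.72 points in CLC D, 0.591 to 1.94 in CLC ID, 0.396 to 9.11 in LCL ID and -0.445 to 0.791 in LCL D. The causes of these shifts were not tested. The motif difference at kept LCL boundaries was 34.2 points within 25 bp of the summit. Called genes at lost boundaries numbered 76 to 80 in CLC and 96 to 125 in LCL with 1 library left out, 191 and 220 with start sites within 100 kb, which takes in more genes, and 90 and 99 with the 5′ end of the gene alone. Replicate numbers did not pair the RNA libraries (correlation of deviations 0.06 in CLC and 0.01 in LCL), and with the replicate block the counts were 105 and 138. Over the named genes, 279 of 311 alternative values kept direction and call, 32 kept the direction alone and 0 reversed. The absence of contact counts from the lists, the single list per condition and the 163 RAD21 regions of LCL ID replicate 2 limit what these lists can show.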
